A study of Mus musculus with 8 samples.

Results

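Ube3a-ATS, the antisense RNA of Ube3a, was measured opposite the 3′ part of that gene with 674 of the 53834 distinct probes of a custom tiling array. The members were all probes of the minus strand of chromosome 7 whose lower coordinate lay between 66526901 and 66566852 (build mm9), a span of 40 kb. Ube3a itself runs on the plus strand. The members were selected on position, and the lower border of the span on the red intensities of the plus strand, at the place where the single-deletion arrays changed their distance from wild type, so the comparisons of those arrays with wild type are described here without a test. Of the members, 308 carry names of the manufacturer's catalogue and 366 are custom probes with a median spacing of 110 bases. Most are 60 bases long (646 members), and 368 overlap the next member, so neighbouring members share sequence and are not independent measurements.

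The 8 samples hold RNA of cerebral cortex taken at postnatal day 0 from mice of the C57BL/6 background. The total RNA samples were 2 wild types (WT), 1 mutant that lacks the Snrpn-Ube3a stretch of the maternal chromosome (del s-u/+), 1 that lacks it on the paternal chromosome (del +/s-u), and 2 that combine the maternal deletion with a paternal deletion of the Snrpn promoter, called double deletions here. Both double deletions thus share the maternal Snrpn-Ube3a deletion with the maternal deletion sample, and the promoter deletion is what they carry in addition. The labels name 2 different promoter deletions, 0.9 and 4.8, but title and genotype contradict each other on which sample has which, so they are called double deletion 1 and 2 and neither value is assigned. PolyA RNA of both wild types formed the last group (n = 2). Each mutant genotype therefore has 1 sample. The number of animals behind a sample is not given in the labels, and the p-values cover no more than the spread among the samples at hand, which may be technical.

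Ube3a encodes an E3 ubiquitin ligase, and loss of its maternal copy causes Angelman syndrome in humans. In neurons the paternal copy is silent, and the long antisense transcript that starts near Snrpn on the paternal chromosome and runs through the snoRNA clusters into Ube3a is the RNA known for this silencing. The maternal Snrpn promoter is methylated and inactive, so the antisense strand is read from the paternal chromosome alone.

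The distal event that sets the double deletions apart lies at the Snrpn promoter, far from the members, and 1 annotated start of that gene is shown to place it. The sequence holds the 250 bases before a Snrpn start in RefSeq (GRCm38.p6, chr7:60005200-60005449, minus strand), 5′ to 3′, with each CG dinucleotide in capitals, the dinucleotide at which mammalian DNA is methylated. The table lists 4 Snrpn starts, and the labels give neither the ends of the promoter deletions nor the start they remove. No probe sequence was in the files used here, so none of a member is printed.
Snrpn, 250 bases before the start: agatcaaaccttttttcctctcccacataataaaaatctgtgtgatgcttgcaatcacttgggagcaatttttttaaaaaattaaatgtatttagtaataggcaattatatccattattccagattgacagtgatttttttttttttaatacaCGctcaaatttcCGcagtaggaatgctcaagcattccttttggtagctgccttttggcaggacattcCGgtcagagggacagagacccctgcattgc
This window holds 3 CG dinucleotides and 36.8% G and C. Of the 32817 promoter windows in the table, 70.9% hold at least as many CG dinucleotides.

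The median red intensity over all spots was 104 to 178 on the total RNA arrays and 47 and 46 on the polyA arrays, beside local backgrounds of 36 to 38 and 34. The number of arrays, and not a count of reads, limits the precision. The files name no gene for a probe outside the locus, so no marker gene of a cortical cell type was used here. In tissue RNA, fewer cells of a type and less RNA per cell cannot be told apart.

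In wild-type cortex every member was well above background on both arrays, as it was in the maternal deletion. Of all spots of those arrays 81.8%, 81.1% and 88.4% were. The median red intensity of the members was 415 in wild type 1 and 423.5 in wild type 2, and 366 in the maternal deletion. It was 42 in the paternal deletion, 65 in double deletion 1 and 131.75 in double deletion 2. The samples that lacked the paternal Snrpn-to-Ube3a stretch or the paternal Snrpn promoter were thus the low ones among the total RNA samples. Well above background were 349 members (51.8%) in the paternal deletion, 591 (87.7%) in double deletion 1 and 664 (98.5%) in double deletion 2, beside 83.7%, 86.6% and 86.1% of all spots of those arrays. On the polyA arrays the median was 57 and 50, and 563 and 514 members (83.5% and 76.3%) were well above background, beside 61.4% and 56.6% of all spots.

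For comparison between arrays, levels were put on the log2 scale after background correction and scaled per array on probes that lie outside the tiled locus, taking their 75th percentile as the zero point, so that a level of 0 is the level of that percentile. The mean level of the members was 1.57 in wild type 1 and 1.61 in wild type 2, which gives 1.59 ± 0.03 (SD, n = 2). It was 1.34 in the maternal deletion, -0.31 in the paternal deletion, -0.19 in double deletion 1 and 0.42 in double deletion 2. The mutant means all lay below both wild types, the maternal deletion by far the least. Single members ranged widely in each sample, from -1.12 to 7.84 in wild type 1 and from -1.57 to 7.82 in the paternal deletion.

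**Figure D1:**
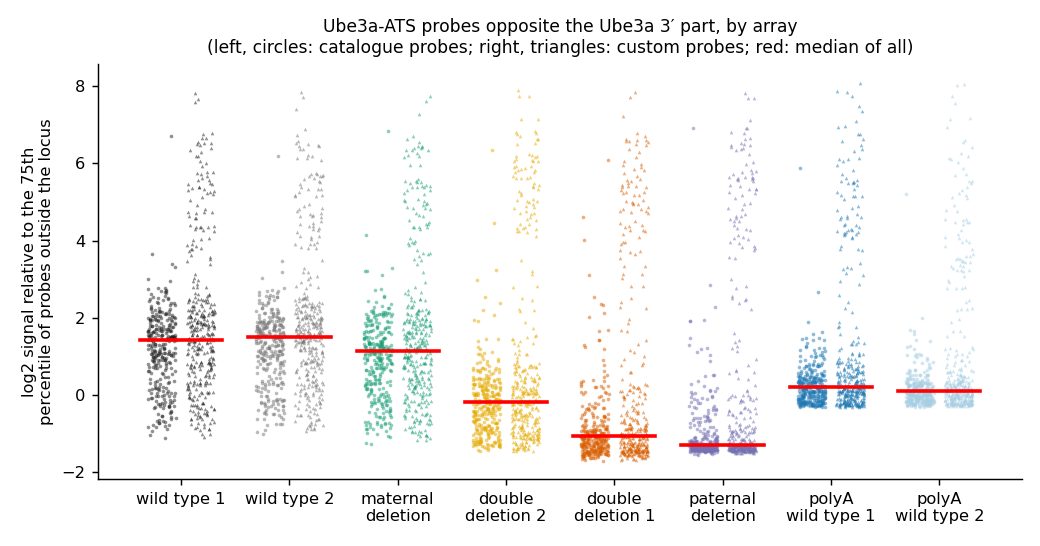
Level of each of the 674 members in the 8 samples, as log2 intensity on the scale set by probes outside the locus; circles are catalogue probes, triangles custom probes, and red lines the medians. Most members of the paternal deletion and double deletion 1 lie low, with medians of -1.31 and -1.07 against 1.43 and 1.49 in the wild types, while the brightest members, custom probes with 1 exception above a wild-type mean of 4, lie high in every sample.

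The span is taken to lie inside the Snrpn-Ube3a deletion. The paternal chromosome of the paternal deletion sample would then lack the members' own sequence, which the double deletions keep there. In the paternal deletion the members lay on average 1.90 below wild type on the log2 scale: the mean difference was -1.90 and the median difference -2.11, beside a median of -0.02 over all probes. The mean difference was -0.65 when arrays were scaled on all probes, whose median difference was then 1.23, and -4.82 when the local background was subtracted. The middle 90% of members had differences between -3.39 and 0.11. Of the 672 members with a value on that array, 608 lay below both wild types, where 42.9% of all probes did so. Above both lay 41 members, where 31.6% of all probes did. The rule used this contrast, so nothing is read from that count. On this array 325 members were not well above background. For them the fold was taken against the member's own paternal level, not against a detection limit. The dimmest level that counted as detected on that array, -1.62, lay below the lowest member, at -1.57. The fold was 4.75 in the median and 15.1 at most, a ratio to readings that were not well above background.

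The largest paternal differences among the brighter members lay in the upper part of the span. The member at chr7:66564995-66565054 had red intensities of 1681 and 1406 in the wild types, 1332.5 in the maternal deletion, 53 in the paternal deletion, 223 and 419 in the double deletions, and 335 and 222.5 in polyA RNA. Its difference in the paternal deletion was -4.32. At chr7:66562465-66562524 the member read 868 and 882 in the wild types, 784.5 in the maternal deletion, 36 in the paternal deletion, 81 and 263 in the double deletions, and 60 and 50 in polyA RNA. The paternal value of this member was not well above background, and its wild-type level was 15.1-fold above that reading.

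The values at the ends of the span are given with no test. The 3 members at the lower end, starting at 66526901, 66526930 and 66526935, read 39, 47 and 62 in the paternal deletion, against 87.5, 128 and 263.5 in wild type 1 and 87.5, 110 and 252 in wild type 2. The 3 minus-strand probes just below the border, starting at 66526825, 66526827 and 66526853, read 450, 440 and 128.5 in the paternal deletion, against 203, 170 and 88.5 in wild type 1 and 265, 162 and 84.5 in wild type 2. The paternal deletion thus lay below both wild types at the members inside the border and above both at the probes just outside it. The double deletions showed no such step. At the same 3 outside probes double deletion 1 read 51, 47 and 39 and double deletion 2 read 77, 86 and 54, below both wild types, and at the inside members they read 46, 55.5 and 66, and 87, 71 and 113.5. At the upper end there was no change of direction in the paternal deletion: the last 3 members read 38.5, 35 and 37, and the next 3 probes above read 49, 142.5 and 46.

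Along the span, wild-type levels of the antisense strand in steps of 2 kb, counted from the lower border, lay between 0.28 and 5.31. The paternal difference was between -1.63 and -2.29 in each step from 0 to 22 kb and from 28 to 32 kb. It was largest from 32 to 38 kb, at -2.67, -2.50 and -2.45 in the 3 steps, and -1.32 in the last step, where the wild-type mean was 0.28. The steps from 22 to 28 kb stood apart from these. In the step from 24 to 26 kb the members' mean was 5.36 and 5.25 in the wild types, 5.20 in the maternal deletion, 5.54 in the paternal deletion and 5.37 and 5.68 in the double deletions. From 26 to 28 kb it was 4.33 and 4.47 in the wild types, 4.31 in the maternal deletion, 4.44 in the paternal deletion and 4.45 and 4.94 in the double deletions. There the genotypes that were low elsewhere lay at or above the wild types.

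**Figure D2:**
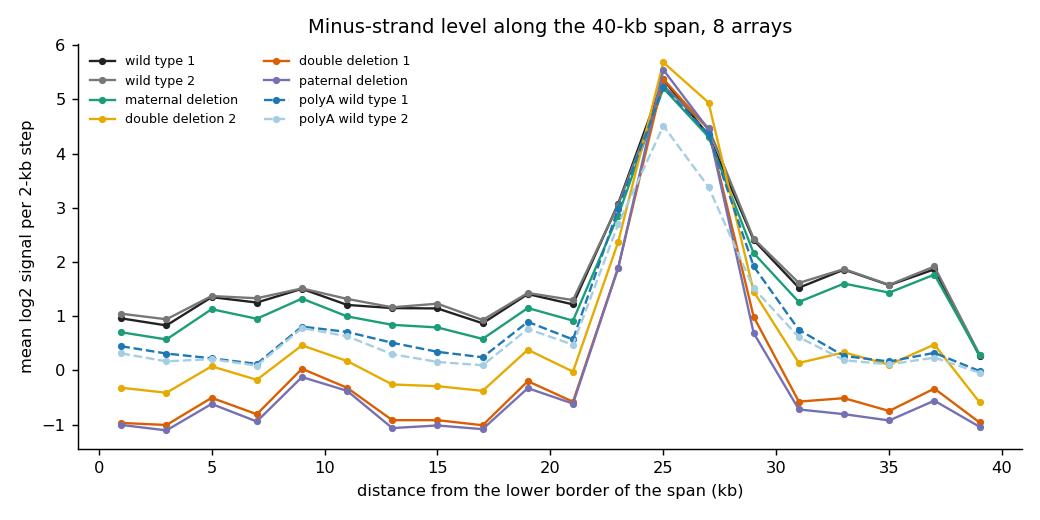
Mean level of the members in steps of 2 kb from the lower border (x axis, kb) for each of the 8 arrays, in log2 intensity relative to probes outside the locus. The wild types and the maternal deletion run together, the paternal and double deletions run lower, and the total RNA samples meet in the steps from 24 to 28 kb, where the wild-type mean is 5.31 and 4.40.

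The stretch from 22 to 30 kb, picked out after its values were seen, holds 88 members, 15 of them catalogue probes. Its mean difference was -0.80 in the paternal deletion and -0.74 and -0.30 in the double deletions, while that of the other 586 members was -2.07, -1.94 and -1.31. The 2 steps at its centre hold 37 members, all of them custom probes. The 15 catalogue members of the stretch had a mean paternal difference of -2.50. On the plus strand the same 2 steps were bright too, with wild-type means of 7.76 and 7.86. What part the probe class or the bright opposite strand has in these values was not tested. Over the whole span the paternal difference was -2.17 for catalogue members and -1.68 for custom members.

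Members that kept their level were not limited to that stretch. In the paternal deletion 88 of 672 members lay within 0.5 of wild type on the log2 scale, 54 in the stretch from 22 to 30 kb and 34 elsewhere. Picked after their values were seen, the 64 members with a wild-type mean level above 4 comprised 63 custom probes and 1 catalogue probe, and 48 of them lay from 22 to 30 kb. Their paternal differences ran from -0.37 to 0.95 with a median of 0.11, and their double-deletion differences from -0.47 to 0.63 with a median of 0.19. No member of that brightness was thus among those with a large drop in either genotype. The brightest member, at chr7:66536945-66537004, read 37186 and 33548 in the wild types, 37971.5 in the maternal deletion, 35056 in the paternal deletion and 42566.5 and 37115 in the double deletions. A member at chr7:66554985-66555044 read 2663 and 2435 in the wild types, 2724 in the maternal deletion, 2639 in the paternal deletion and 2852 and 4100 in the double deletions. At both of these the paternal sample and at least 1 double deletion reached or passed a wild type, unlike at most members.

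The double deletions ask how much of the antisense strand is left when the paternal promoter near Snrpn is removed while the members' own sequence stays on the paternal chromosome. The members' mean difference from wild type was -1.78 in double deletion 1 and -1.17 in double deletion 2, and -1.48 for both together. Both double deletions lay below both wild types at 593 of 674 members (88%), where 43.1% of all probes did so, and both lay above at 30 members, where 22.4% of all probes did. The test took both double deletions as 1 group, though the labels name different promoter deletions, so their own difference enters the spread. With limma and Benjamini-Hochberg adjustment over all 53770 probes tested, 181 of 672 members were lower at an adjusted p under 0.05, that is 26.9% of them beside 2.44% of all probes. None was higher, where 5.4% of all probes were, and 574 members (85.4%) had an unadjusted p under 0.05, as 26.2% of all probes did. The median difference of the members was -1.72, beside -0.12 over all probes.

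Among the members that fell, the one at chr7:66542775-66542834 read 665 and 599.5 in the wild types, 46 and 68.5 in the double deletions, 36 in the paternal and 516 in the maternal deletion. The groups did not overlap, and the difference of the double deletions from wild type was -3.22 (SE 0.20, limma adjusted p = 0.0362). Another, at chr7:66535295-66535354, read 703.5 and 693 in the wild types, 55 and 95 in the double deletions, 36.5 in the paternal and 602 in the maternal deletion, a difference of -3.08 (SE 0.27, limma adjusted p = 0.0362). The last of the 3 named, at chr7:66558945-66559004, read 856 and 876 in the wild types and 71 and 165 in the double deletions, a difference of -2.97 (SE 0.43, limma adjusted p = 0.0499). At each of these members double deletion 2 read higher than double deletion 1.

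The same comparison was made over fixed bins of 10 kb, 3 of which lie wholly inside the span. The bin from 66530001 to 66540000 had a mean level of 1.23 and 1.29 in the wild types and -0.56 and -0.01 in the double deletions, a difference of -1.54 (SE 0.23, limma adjusted p = 0.0404). The bin from 66540001 to 66550000 had 1.18 and 1.24 against -0.70 and -0.08, a difference of -1.60 (SE 0.26, limma adjusted p = 0.0454). The bin from 66550001 to 66560000, which holds most of the bright stretch, had 2.99 and 3.02 against 1.72 and 2.29, a difference of -0.998 (SE 0.23, limma adjusted p = 0.109). So 2 of 3 bins passed the test as lower, where 3.37% of the 356 bins of the locus did. Other settings ended some of these calls in limma. Quantile normalization called 0 members and 0% of all probes. At an unadjusted p under 0.05 it had 609 members (90.6%), beside 29.4% of all probes. The scale on all probes called 0 of the 3 bins and 0% of the bins of the locus. At an unadjusted p under 0.05 were 2 of the 3, beside 32%. Background subtraction called 0 of the 3 bins, where 1.97% of the bins of the locus were lower and 16.6% higher. All 3 had an unadjusted p under 0.05, beside 29.2%. The calls rest on both wild types. Leaving out either of them left 1 sample in that group, and calls then ended over the whole array, not only among the members. The members' mean difference stayed between -1.78 and -1.17 when any 1 sample was left out.

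Against the maternal deletion, which shares the maternal deletion of the double mutants and has its paternal promoter intact, the double deletions had a mean difference of -1.23 and a median of -1.38, beside -0.05 over all probes. Both lay below the maternal deletion at 596 of 674 members, where 42.6% of all probes did so, and both above at 49, where 27.8% of all probes did. By bin the differences were -1.26 (SE 0.28), -1.27 (SE 0.31) and -0.79 (SE 0.29), each with a limma adjusted p of 0.526. In limma 0 of 672 members passed at an adjusted p under 0.05, with 493 (73.4%) at an unadjusted p under 0.05 beside 12.7% of all probes, and 0% of all probes passed. This comparison has a single maternal deletion sample and both double deletions as 1 group, whose own difference enters the spread. The plus strand of the maternal array also helped to set the border of the span. A fit with the double deletions as separate groups leaves 1 sample in every mutant group. Each such group is assumed to vary like the wild-type pair, whose single difference gives all of the spread. The calls of that fit are not read as a result.

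In the maternal deletion the members lay close to wild type. The mean difference was -0.25 and the median -0.26, beside a median of -0.08 over all probes. The value was below both wild types at 537 of 674 members, where 53.7% of all probes were, and above both at 54, where 25.3% were. The rule used this contrast as well, so it is a description of 1 sample. Along the span the difference was -0.39 from 14 to 16 kb, -0.12 from 36 to 38 kb and 0.00 in the last step.

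Each member has a partner probe with the reverse complement at the same position, which reads the sense strand of Ube3a. The sense strand of the single-deletion arrays is what placed the border, so the strand contrast in these arrays is not independent of the choice of members and is a description. In the paternal deletion the mean difference was -1.90 on the antisense strand and -0.14 on the sense strand, and the antisense strand had the more negative difference at 625 of 672 positions (93.0%), beside 76.2% of all positions of the locus. In the double deletions it was -1.78 against -0.22 and -1.17 against -0.46, with 622 and 556 of 674 positions (92.3% and 82.5%), beside 78.6% and 74.3% of all positions. In the maternal deletion the order was turned, with -0.25 on the antisense and -0.82 on the sense strand, and the antisense strand was the more negative at 161 positions (23.9%), beside 68.1% of all positions. From the maternal to the double deletions the antisense strand differed by -1.23 and the sense strand by 0.48. A test of the difference between strands at each position, which no scaling of an array affects, called 0 of 672 members in limma for the double deletions against wild type, where 0% of all positions were called. At an unadjusted p under 0.05 were 343 members (51.0%), beside 33.9% of all positions.

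**Figure D3:**
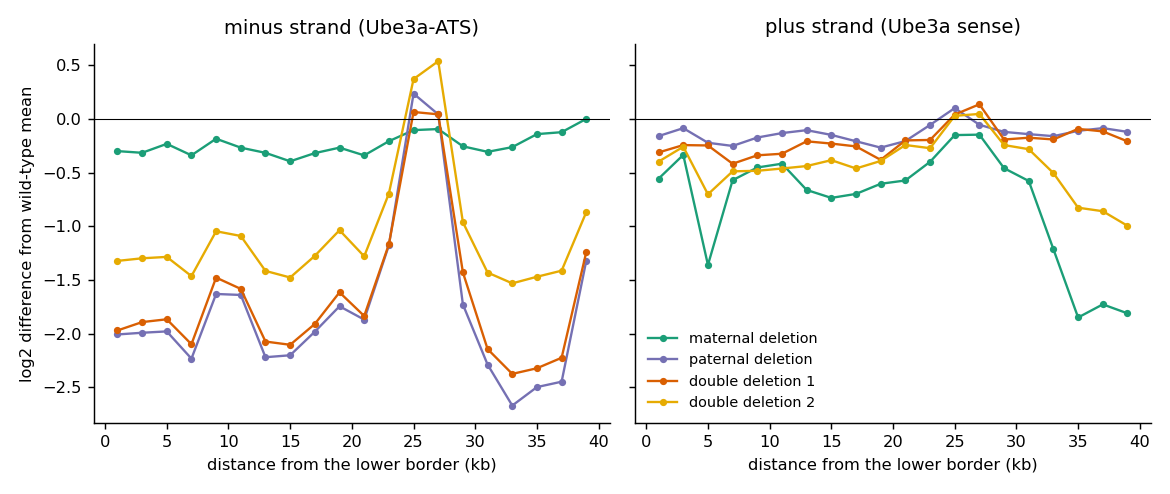
Mean log2 difference from the wild-type mean in steps of 2 kb along the span for the antisense strand (members) and the sense strand (partner probes), with a line for each mutant sample. Outside the steps from 24 to 28 kb the paternal and double deletions lie below the maternal deletion on the antisense strand, and the maternal deletion lies lowest on the sense strand in most steps, at -1.36 from 4 to 6 kb and -1.85 from 34 to 36 kb.

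The polyA arrays ask how much of the antisense strand is kept by selection on oligo(dT), with the total RNA of each wild type as its reference. Relative to probes outside the locus, the members' mean level was 0.80 and 0.64 in polyA RNA against 1.57 and 1.61 in total RNA. The zero point of this scale lay near background on the polyA arrays, at red intensities of 47 and 46 beside a background of 34. On the wild-type total RNA arrays it was 140.25 and 135. Of the outside probes 36.5% and 32.2% were well above background in polyA RNA, and 60.5% and 59.2% in total RNA. The part of this in the differences was not tested. The difference was -0.77 in wild type 1 and -0.98 in wild type 2, and the median over members was -0.96, beside 0.17 over all probes. Both polyA samples lay below both total RNA samples at 528 of 674 members, where 39.3% of all probes did so, and above both at 72, where 50.4% did. In limma 477 of 674 members were lower in polyA RNA (70.8%, where 33.9% of all probes were) and 50 were higher (7.42%, where 45.5% were). All 3 bins were lower, where 38.5% of the bins of the locus were, by -0.88 (SE 0.04, limma adjusted p = 0.000292), -0.73 (SE 0.07, limma adjusted p = 0.00208) and -0.80 (SE 0.16, limma adjusted p = 0.016).

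The direction depends on the scale. Set against the 75th percentile of all probes of the array instead, the members' mean difference was 0.47, beside a median of 1.51 over all probes, and 346 members (51.3%) were higher and 96 (14.2%) lower, where 78.4% of all probes were higher and 14.1% lower. All 3 bins were higher on that scale, as were 84.8% of the bins of the locus. A change of scale shifts all probes of an array alike. That the members' median lay below that of all probes on either scale is thus fixed by construction, and 1 scale is no check on the other. The dim end of the polyA arrays was also compressed, since the lowest member had a level of -0.31 and -0.32 there and of -1.12 and -1.01 in total RNA, and the part of this in the differences was not tested. Where neither scale enters, in the antisense level less that of the sense strand at each position, 461 of 674 members were lower in polyA RNA (68.4%, where 56% of all minus-strand positions were) and 75 higher (11.1%, where 18.6% were), with a median of -0.93 beside -0.65.

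The members with the largest drop in polyA RNA were bright in total RNA, as a drop of that size above the lowest polyA levels requires. The member at chr7:66534855-66534914 read 1172 and 1079 in total RNA and 63 and 46 in polyA RNA, a difference of -2.69 (SE 0.12, limma adjusted p = 0.000339). That at chr7:66564885-66564944 read 1107 and 1170 against 58 and 56, a difference of -2.64 (SE 0.07, limma adjusted p = 0.000158). That at chr7:66559226-66559285 read 997 and 974 against 60.5 and 57.5, a difference of -2.39 (SE 0.06, limma adjusted p = 0.000153). In the paternal deletion these members read 122, 132 and 115.5, below their own wild-type values but above the median of 42 over the members on that array.

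The members with the largest rise in polyA RNA on this scale had another pattern over the genotypes. The one at chr7:66537055-66537114 read 409.5 and 476.5 in total RNA and 630 and 532 in polyA RNA, a difference of 1.64 (SE 0.13, limma adjusted p = 0.000577), and 338 in the paternal deletion. The one at chr7:66557955-66558014 read 14690 and 14330 against 18318 and 17101, a difference of 1.57 (SE 0.06, limma adjusted p = 0.000239), and 14419 in the paternal deletion. The one at chr7:66549925-66549984 read 1267 and 1300 against 1401 and 1398, a difference of 1.40 (SE 0.06, limma adjusted p = 0.000341), and 1229 in the paternal deletion. All 3 thus lay within 0.5 of wild type in the paternal deletion, as 88 of 672 members did.

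**Figure D4:**
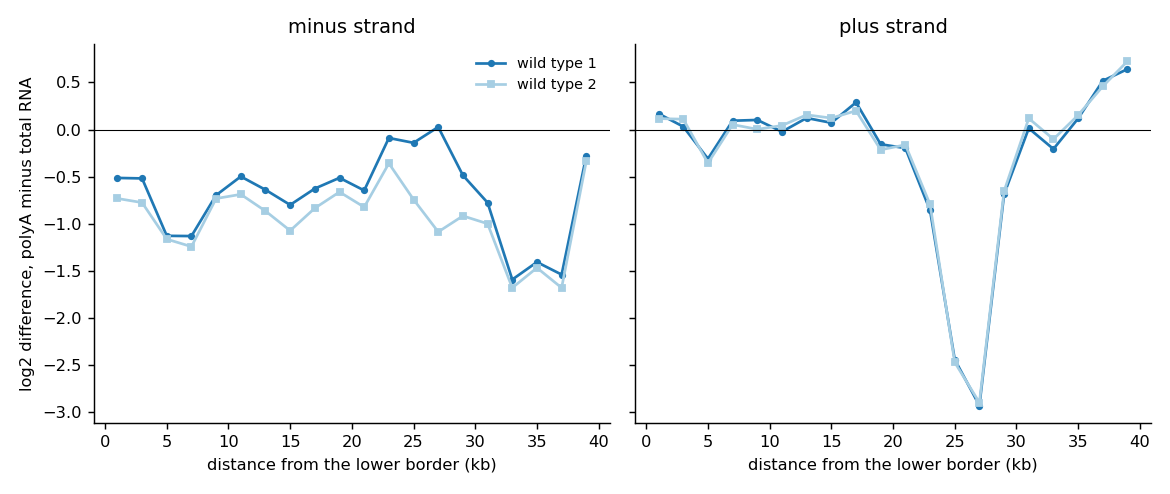
Difference of polyA from total RNA (log2, relative to probes outside the locus) in steps of 2 kb along the span, for both wild types and both strands. On the minus strand both wild types show their lowest values from 32 to 38 kb, down to -1.59 and -1.68 from 32 to 34 kb, and the plus strand has its lowest values from 24 to 28 kb.

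Along the span the polyA difference was -1.13 and -1.16 from 4 to 6 kb, -1.13 and -1.24 from 6 to 8 kb, and -1.59 and -1.68 from 32 to 34 kb. The last step had -0.28 and -0.34. From 22 to 30 kb the wild types disagreed, with -0.20 and -0.77, while over the other 586 members they had -0.85 and -1.01. The sense strand had a mean polyA difference of -1.56 from 22 to 30 kb and -0.14 over the whole span.

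The members were set beside stretches of equal length on the same strand. The stretch above, from 66566853 to 66606804 (662 probes), had a wild-type mean of 1.73, a paternal difference of -2.07, double-deletion differences of -1.82 and -1.06 and polyA differences of -1.05 and -1.13. The next one up, from 66606805 to 66646756 (374 probes), had a wild-type mean of 4.89 and differences of -4.93, -3.42 and -1.28, and -3.33 and -3.36 in polyA RNA. The stretch below, from 66486949 to 66526900 (713 probes), which lies on the other side of the lower border, had a wild-type mean of 0.85 and differences of -0.57 in the paternal deletion and -1.53 and -1.23 in the double deletions, and of -0.22 and -0.40 in polyA RNA. Over the members the paternal deletion and double deletion 1 differed by little on this scale, at -1.90 and -1.78, where both were near background. Their median red intensities were 42 and 65 beside backgrounds of 36 and 37, with 51.8% and 87.7% of members well above background. With the background subtracted, the difference was -4.82 in the paternal deletion and -2.64 for both double deletions together. Below the border the paternal deletion was nearer to wild type than double deletion 1. These stretches hold other probes, so their levels are not set against the members' by a test.

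**Figure D5:**
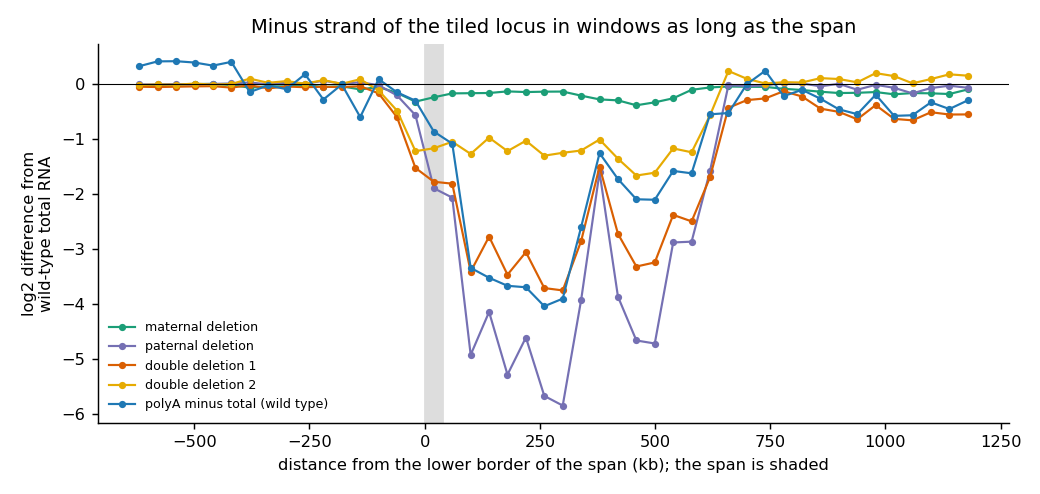
Mean log2 difference from wild type on the minus strand in windows as long as the span, placed by distance along the tiled locus (x axis, kb from its lower border), for each mutant total RNA sample and for polyA RNA. The members' window has -1.90 in the paternal deletion, the window below it -0.57 and the second window above it -4.93.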

How the data were processed

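Red-channel median intensity values per spot were deposited by the authors, 1 file per array and not normalized. The software was Agilent Feature Extraction 10.7.3.1 and the build mm9, per the file headers, whereas the submitters' processing notes name version 10.9. Per the labels' protocols, Cy5-labelled first-strand cDNA was made with random hexamers with an input of 15 µg for total RNA and 750 ng for polyA RNA (30 µg of total RNA went into each purification), so each strand has its own probes. The authors' matrix, with intensity values of 307 members multiplied by 1 factor per array, was used as an alternative.

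Intensities were corrected with normexp (offset 50, limma 3.58.1, R 4.3.3) and put on the log2 scale. Control and outlier spots were then dropped, and spots of a probe were averaged. Each array was scaled on the 75th percentile of the 3338 probes outside chr7:65790585-67800765. In total RNA fits 2 members have no value on the paternal array, so 672 were tested. Groups came from the labels. limma (lmFit, eBayes, two-sided, Benjamini-Hochberg, threshold 0.05) was fitted over all probes, and over 10-kb bins with at least 3 probes. The 6 total RNA samples formed 4 groups, and the 4 wild-type samples a separate fit. The same wild-type numbers mark the same RNA in total and polyA samples, per the labels, and the fit with that number as a block is an alternative. The scripts were tested on simulated data.

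The members, the scale and the rules were chosen with earlier results of these data known. Named members were those nearest the ends and bin middles, the brightest, the 3 with the largest called change in each direction per comparison, and the bright ones with the smallest and largest paternal difference. Members of the 22-to-30-kb stretch were picked after their values were seen. Other scalings, background corrections, a filter on dim probes and left-out samples were tried.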

Additional observations from a re-analysis of the deposited data

How the results depend on the processing

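Scaled on the 75th percentile of all probes, the members' mean difference was -0.21 in the maternal and -0.65 in the paternal deletion. It was -1.01 in the double deletions, -0.80 for the double against the maternal deletion, and 0.47, of opposite sign, in polyA RNA. That scale called 384 members (57.1%, beside 19.7% of all probes) for the double deletions against wild type. It called 0 of the 3 bins there and 0% of all bins, with 2 of the 3 at an unadjusted p under 0.05, beside 32%. For the double against the maternal deletion 130 members (19.3%, beside 7.93%) were called. For polyA RNA 442 members (65.6%, beside 92.5%) were called, mostly higher. All 3 bins were called higher, where 97.8% of all bins were called and 84.8% were higher. With the local background subtracted, the mean differences were -0.36, -4.82, -2.64 and -2.27 for the first 4 comparisons. For the double deletions against wild type 80 members were then called, all lower (11.9%, beside 1.72% of all probes lower and 7.97% higher). Of the 3 bins 0 were called (3 at an unadjusted p under 0.05), where 1.97% of all bins were lower and 16.6% higher. With no background correction the mean differences were -0.28 and -2.28 in the maternal and paternal deletions. The authors' values gave -0.32, -2.69, -1.93 and, in polyA RNA, -1.61. Quantile normalization gave -1.59 in the paternal deletion and -0.35 in polyA RNA. For the double deletions against wild type it called 0 members and 0% of all probes in limma. At an unadjusted p under 0.05 were 609 members (90.6%), beside 29.4% of all probes. The median of outside probes as the scale gave -1.69 in polyA RNA. Catalogue probes alone, chosen after seeing the data, gave -2.17 in the paternal deletion and -0.96 in polyA RNA. The strand difference, also chosen then, called 0 members and 0% of all positions for the double deletions against wild type. At an unadjusted p under 0.05 were 343 members (51%), beside 33.9% of all positions.

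With the double deletions as separate groups, 591 members (87.9%, beside 33.7% of all probes) passed against wild type, and 526 members (78.3%, beside 18.3%) and 3 bins against the maternal deletion. With all 8 samples in the fit, 534 (79.5%, beside 18.4%) and 15 members (2.23%, beside 0.629%) passed. Leaving out 1 sample at a time gave 0 to 581 members (0 to 86.5%, beside 0 to 35.4% of all probes) and 0 to 3 bins for the double deletions against wild type, 0 to 532 members (0 to 79.2%, beside 0 to 21.2%) and 0 to 3 bins against the maternal deletion, and 507 to 532 members (75.2% to 78.9%, beside 75.2% to 77.6%) and 2 to 3 bins for polyA RNA. The arms left with 1 sample were assumed to vary like the others, and these counts and shares take both directions together. With the replicate block, 534 members (79.2%, beside 80.2%) and 3 bins passed for polyA RNA, against 527 and 3 without it. No call of a bin inside the span changed. Of all bins of the locus 85.4% were called with the block and 79.2% without it. By direction, 71.5% of the members were lower with the block, beside 34.6% of all probes, and 7.72% higher, beside 45.6%. The causes of these shifts were not tested, beyond the fewer samples in the fits that leave 1 out. Precision is limited by the number of arrays and, in the paternal deletion and polyA RNA, by signal close to background.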

Other observations

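A single member, picked after its value was seen, stood apart on 1 array. The probe at chr7:66556712 read 2956 in double deletion 1, while it read 71 and 119 in the wild types, 58.5 in the maternal deletion, 36 in the paternal deletion, 43 in double deletion 2 and 40 and 38 in polyA RNA. Its difference from wild type was 4.49 in double deletion 1 and -0.96 in double deletion 2.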
